A study of Papio anubis with 12 samples.

Results

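The hemoglobin chains and 2 other erythroid genes were followed in the precentral gyrus, the primary motor part of the cerebral cortex, of neonate baboons. The genes were HBA1, HBA2, HBB, HBD, HBG1, HBG2, HBE1, HBZ, ALAS2 and CA1, and every probe set whose platform annotation names one of them was taken, also where it lists several symbols. All 10 genes were represented, by 21 of the 54613 probe sets tested. The arrays were Affymetrix HG-U133 Plus 2.0, with 1 array per animal and 12 arrays in all. Formula C contained neither docosahexaenoic acid (DHA) nor arachidonic acid (ARA), formula L contained 0.33% DHA and 0.67% ARA, and formula L3 contained 1% DHA and 0.67% ARA. Each formula was fed for 12 weeks to 4 animals, which were 83 to 85 days old in C, 84 to 87 days in L and 83 to 84 days in L3. The C group had 2 males, L had 1 and L3 had 0, so that the L3 comparisons also carry a difference in the share of males. The probes were designed on human transcripts, which limits how a signal from baboon RNA can be read, and the tissue was analysed in bulk.

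Hemoglobin is a tetramer of alpha-like and beta-like chains that carries oxygen in red blood cells. In humans the embryonic chains are zeta (HBZ) and epsilon (HBE1), the fetal beta-like chain is gamma (HBG1 and HBG2), and beta (HBB) with a little delta (HBD) replaces gamma around and after birth. ALAS2 is the erythroid form of the first enzyme of heme synthesis, and CA1 is a carbonic anhydrase abundant in red cells. Brain tissue contains blood in its vessels, and globin transcripts have also been described in neurons and glia. In bulk tissue, fewer cells of a type and less RNA per cell cannot be told apart, and the source of the globin signal was not tested. By the baboon gene table of assembly Panubis1.0, which lists 7 of the 10 symbols, HBB, HBD, HBG2 and HBE1 stand next to each other in that order.

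The values are MAS5 signals, which are linear intensities scaled by array. Differences between groups were taken on quantile normalized log2(signal + 16) values and tested with limma, with Benjamini-Hochberg adjustment over all probe sets. A positive L/C, L3/C or L3/L difference means a higher value in the group named first. An exact two-sided permutation test of 4 against 4 arrays was added, in which the smallest possible p is 0.0286. The levels of member probe sets were not read against each other as amounts of transcript. The name ending _x_at marks a set whose probes can match related transcripts, so HBA1 with HBA2, HBG1 with HBG2, and to some degree HBB with its neighbours could share signal. Precision was limited by 4 arrays per group, with a median standard error (SE) over all probe sets of 0.51 on the log2 scale.

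Neuronal markers were bright in every array (mean log2 of 12 genes 11.7 to 12.4). A Y-linked gene, RPS4Y1, read 3132 to 4667 in the 3 males and 65.8 to 317.3 in the 9 females, which matches the labels. Signals of up to 317.3 can thus arise on these arrays without the transcript. That value was read in L3 replicate 3, and the other females read 65.8 to 248.3. Such signal can differ between probe sets, so 317.3 serves as a rough mark only. The 3'/5' log2 ratio of ACTB, a sign of RNA or labelling quality, was -0.15 to 6.18 and highest in L3 replicate 1. Hybridization spike-ins had a mean log2 of 10.7 to 13.7 and were highest in L3 replicate 3 and L3 replicate 2.

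The 6 probe sets for the alpha chains HBA1/HBA2, partner of every beta-like chain after the embryonic stage, varied widely among animals. On the log2 scale the SD within a group was largest in L3 for 3 of the 6 sets, in L for 2 and in C for 1. The brightest, 214414_x_at, read 1172, 634.6, 1015 and 1237 in C, 363, 1814, 1041 and 1261 in L, and 490.5, 2336, 576 and 1735 in L3. The highest arrays were L3 replicate 2 and L replicate 2 and the lowest were L replicate 1 and L3 replicate 1, so the groups overlapped entirely. Its log2 difference was 0.15 in L3/C (SE 0.50, 95% interval -0.90 to 1.21), -0.16 in L/C (SE 0.50) and 0.32 in L3/L (SE 0.50). These differences were smaller than the spread between animals, and their signs changed with the scaling.

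The probe set 211699_x_at had the smallest p of the alpha chains. It read 446.9, 905.1, 575.7 and 894.2 in C, 473.7, 859.6, 314 and 631.6 in L, and 719.3, 1339, 827.3 and 1401 in L3. Of the L arrays only replicate 2 reached into the L3 range, and the C arrays overlapped both other groups. The L3/L difference was 1.07 (SE 0.34, limma p = 0.00594, adjusted p = 0.891, exact permutation p = 0.0571), and L3/C was 0.65 (SE 0.34, limma p = 0.0709). A second set, 209458_x_at, had an L3/L difference of 0.82 (SE 0.38, limma p = 0.0471, adjusted p = 0.891, exact permutation p = 0.171), which was 0.48 without L replicate 1, and its L3 arrays overlapped those of L. Over the 6 alpha probe sets, all 6 had a mean above that of L in L3 and 5 had a mean above that of C, whereas 1 was above C in L.

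**Figure D1:**
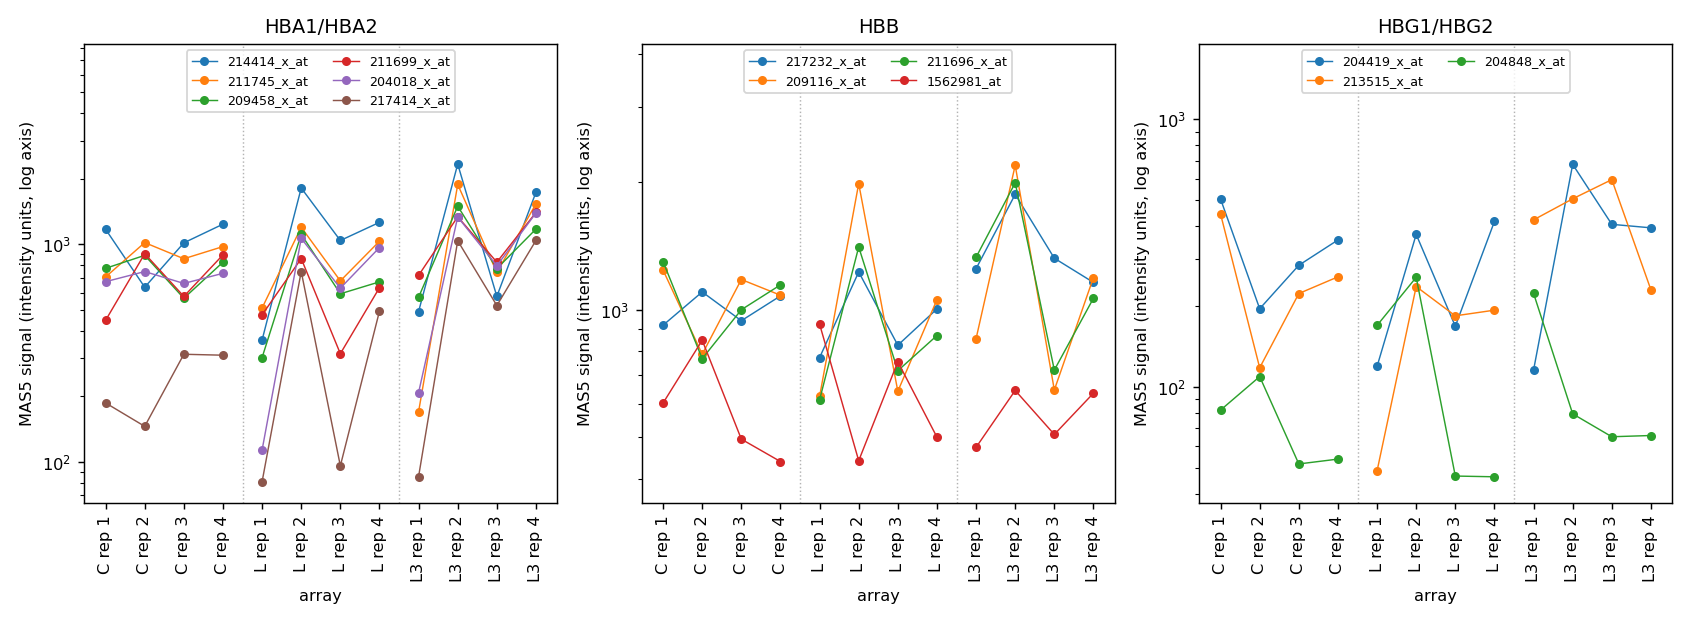
MAS5 signal (log axis) of every probe set for HBA1/HBA2, HBB and HBG1/HBG2 in each of the 12 arrays. Lines join the 4 arrays of a group to guide the eye and carry no order. L3 replicate 2 stands at or near the top for most sets, and L replicate 1 is low for the alpha chains.

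HBB, the adult beta chain, was represented by 3 _x_at sets and by 1562981_at. The set 217232_x_at read 918.6, 1100, 941.1 and 1076 in C, 770.7, 1226, 824.2 and 1003 in L, and 1248, 1866, 1320 and 1158 in L3. Every L3 array was above all C arrays in signal, and L replicate 2 alone of the L arrays exceeded an L3 array. After quantile normalization the order changed a little, and the L3 arrays then lay above all L arrays and overlapped C. The L3/L difference was 0.73 (SE 0.24, limma p = 0.00873, adjusted p = 0.891, exact permutation p = 0.0286), and it was the 1 member of 21 whose groups did not overlap in L3/L, where 2.66% of all probe sets did not overlap and 1.53% were higher without overlap. The L3/C difference was 0.58 (SE 0.24, 95% interval 0.06 to 1.09, limma p = 0.0317, adjusted p = 0.999, exact permutation p = 0.0571), and L/C was -0.15 (SE 0.24). With arrays centred on their medians, L3/C was 0.27 and L3/L was 0.34, both with an unadjusted limma p above 0.05.

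This HBB set tended to be higher in arrays of stronger spike-in signal, short of an adjusted p of 0.05. Pearson's r was 0.71 (permutation p = 0.0092, adjusted over 11 relations 0.0508) and Spearman's rho was 0.57 (permutation p = 0.0549, adjusted 0.302). Without L replicate 4 and L3 replicate 3, the arrays farthest from the median spike-in signal, r was 0.63. It was -0.25 among the 6 arrays of weaker spike-in signal and 0.70 among the other 6, with neither value tested. With the spike-in signal as a covariate, L3/C was 0.44, no longer under an unadjusted p of 0.05, and L3/L was 0.53, still under it. Its part in the difference was not tested further.

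The 2 other _x_at sets of HBB gave smaller differences. The set 209116_x_at read 1238, 784.9, 1177 and 1081 in C, 624.3, 1978, 642.1 and 1055 in L, and 854, 2184, 646.7 and 1189 in L3, with its peaks in L3 replicate 2 and L replicate 2. Its L3/C difference was 0.18 (SE 0.36, 95% interval -0.58 to 0.93). The set 211696_x_at had an L3/C difference of 0.34 (SE 0.31) and an L3/L difference of 0.67 (SE 0.31, limma p = 0.0471, adjusted p = 0.891, exact permutation p = 0.143), which was 0.41 without L3 replicate 2. Both had r with the spike-in signal below that of 217232_x_at, at 0.10 and 0.30 (permutation p = 0.767 and 0.347, adjusted 0.767 and 0.545), with rho of -0.08 and 0.15 (permutation p = 0.798 and 0.635) and r of 0.28 and 0.41 without the same 2 arrays. The set 1562981_at did not follow the others, with an L3/C difference of -0.11 (SE 0.33) and its highest signal, 924, in L replicate 1, where the _x_at sets were at their lowest.

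The gamma chains HBG1/HBG2, which form fetal hemoglobin with alpha, gave signals that in part did not exceed the level seen for RPS4Y1 without its transcript (317.3). The set 204419_x_at was at or below that level in 5 of 12 arrays, 213515_x_at in 8, among them all 4 L arrays, and 204848_x_at in all 12. The brightest set, 204419_x_at, read 503.7, 196.1, 285 and 354.3 in C, 119.4, 371.6, 168.7 and 415.4 in L, and 115.7, 678.7, 405.3 and 393.3 in L3. The highest value was again in L3 replicate 2 and the lowest in L3 replicate 1, so L3 spanned both other groups. The L3/C difference was 0.05 (SE 0.56, 95% interval -1.13 to 1.23) and L/C was -0.39 (SE 0.56). The set 213515_x_at read 421.2, 504.9, 595.4 and 230.7 in L3, against 48.6, 237.3, 184.5 and 193.7 in L, and only L3 replicate 4 fell within the L range. Its L3/L difference was 1.39 (SE 0.54, limma p = 0.021, adjusted p = 0.891, exact permutation p = 0.0571), against L signals that were all within the level seen for RPS4Y1 without its transcript, and L3/C was 0.77 (SE 0.54, limma p = 0.174). Without L replicate 1 the L3/L difference was 0.86. The third set, 204848_x_at, read 46.2 to 256.9, and its L3/L difference was -0.20 (SE 0.57).

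The fetal and adult beta-like chains were set against each other within each array as log2 gamma minus log2 beta, of which only the change between arrays can be read. For the brightest pair, 204419_x_at minus 217232_x_at, the values were -0.89, -2.90, -1.29 and -1.37 in C, -2.99, -1.32, -2.04 and -1.05 in L, and -3.61, -1.50, -2.07 and -1.37 in L3. The lowest value of each group was well below its other values, in C replicate 2, L replicate 1 and L3 replicate 1. Group C averaged -1.61 ± 0.88, group L -1.85 ± 0.87 and group L3 -2.14 ± 1.03 (mean ± SD of 4 arrays), which differ by less than the SD of any group. Over the 9 pairs of a gamma set with an _x_at HBB set, L3 minus C ran from -0.53 to 0.60 with 5 of 9 below 0, L minus C from -0.46 to 0.79 with 6 below 0, and L3 minus L from -0.93 to 1.00 with 5 below 0. Without the 3 pairs of 204848_x_at, L3 minus C ran from -0.53 to 0.60 with 3 of 6 below 0, L minus C from -0.46 to -0.06 with 6 of 6 below 0, and L3 minus L from -0.29 to 1.00 with 2 of 6 below 0. In the L3 comparisons the direction thus depended on which probe sets stood for the chains. The 6 pairs share probe sets, and in each the lowest L value was that of L replicate 1 (-4.08 to -2.50). Without that array, L/C was -0.01 for 204419_x_at and -0.08 for 213515_x_at, against -0.16 for HBB 217232_x_at. These gamma sets then no longer fell more than that HBB set.

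**Figure D2:**
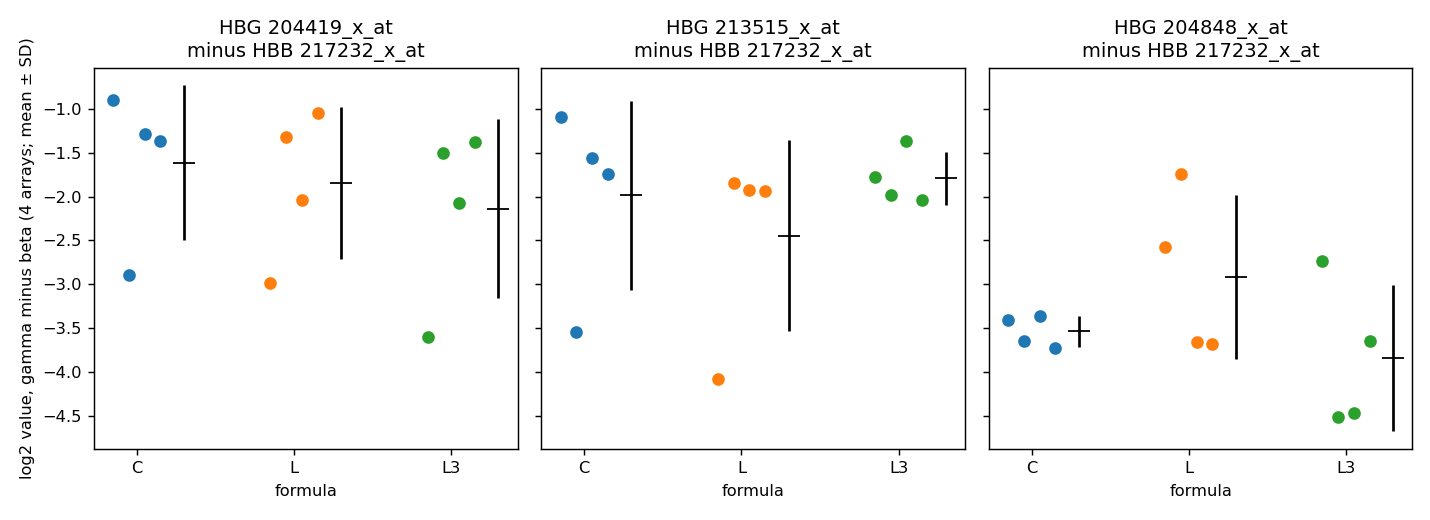
Log2 value of each gamma probe set minus that of HBB 217232_x_at, by formula. Points are the 4 arrays of a group and the bar beside them is mean ± SD. Means for the brightest gamma set are -1.61 in C, -1.85 in L and -2.14 in L3, with SDs of 0.87 to 1.03, and the order of the groups differs among the 3 panels.

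HBD, in humans the minor adult beta-like chain, read 396.6, 337.4, 291.5 and 128.2 in C, 456.7, 200.3, 207.9 and 218.3 in L, and 154.7, 176.4, 327.1 and 141.2 in L3. All L3 arrays but replicate 3 lay below every L array, and 8 of the 12 values were within the level seen for RPS4Y1 without its transcript. The log2 difference was -0.61 in L3/C (SE 0.40, limma p = 0.152, exact permutation p = 0.171) and -0.59 in L3/L (SE 0.40, limma p = 0.165, exact permutation p = 0.114), opposite in sign to those of the 3 _x_at sets of HBB. HBE1, the embryonic beta-like chain, had 2 sets that disagreed. The set 205919_at ranged from 37.2 to 525.6 and its L3/C difference was -0.72 (SE 0.76), while 217683_at ranged from 25.8 to 189.1 with an L3/C difference of 0.28 (SE 0.51). HBZ, the embryonic alpha-like chain, ranged from 8.3 to 155.6, with its highest value in L3 replicate 2 and an L3/C difference of 0.34 (SE 0.52). The signals of HBE1 and HBZ reached no higher than those seen without a transcript for RPS4Y1, except for the highest arrays of 205919_at.

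Both ALAS2 sets stayed within the level seen for RPS4Y1 without its transcript in all 12 arrays. The set 244205_at read 129.9, 205.7, 97.8 and 109 in C, 91.2, 76.3, 124.2 and 56.5 in L, and 149.6, 262.9, 128.9 and 111.1 in L3. Most L arrays were low, and the highest value was in L3 replicate 2. The log2 difference was -0.52 in L/C (SE 0.44, limma p = 0.253, exact permutation p = 0.114), 0.06 in L3/C (SE 0.44) and 0.58 in L3/L (SE 0.44, limma p = 0.205, exact permutation p = 0.114). The set 211560_s_at stayed at 9.6 to 20.2, around the value of 16 added to each signal, and can show no difference.

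CA1 was the member with the largest L3/C difference, and its 2 sets disagreed. The set 205950_s_at read 520.5, 1006, 1028 and 953.9 in C, 762.8, 884.1, 424.4 and 409 in L, and 737.4, 52, 349.7 and 665.3 in L3. The value of 52 came from L3 replicate 2, the array in which most globin sets were highest, and L3 replicate 1 and L3 replicate 4 lay within the C range. The L3/C difference was -1.37 (SE 0.59, 95% interval -2.62 to -0.12, limma p = 0.0341, adjusted p = 0.999, exact permutation p = 0.143), and without L3 replicate 2 it was -0.61 (limma p = 0.149). The set 205949_at had an L3/C difference of 0.48 (SE 0.42), of the opposite sign, and read 451.2 in that array.

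**Figure D3:**
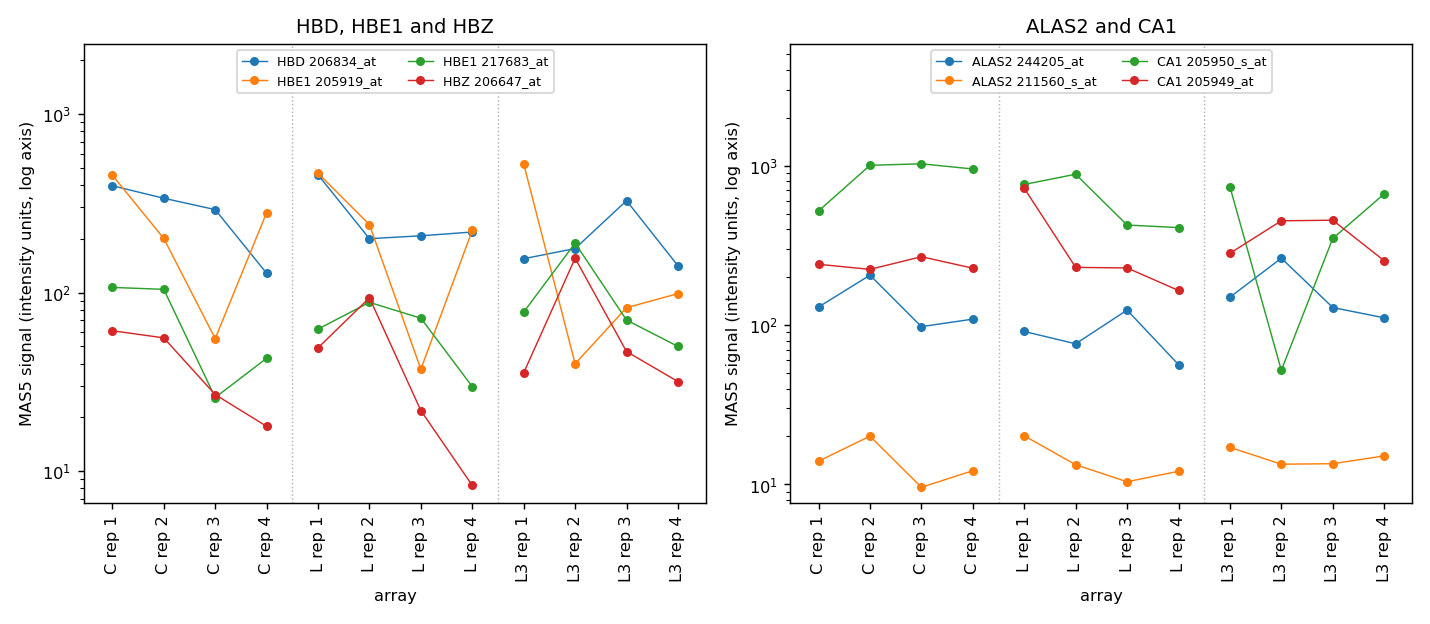
MAS5 signal (log axis) of the probe sets for HBD, HBE1 and HBZ and for ALAS2 and CA1 in each of the 12 arrays. Lines join the arrays of a group and carry no order. CA1 205950_s_at falls to 52 in L3 replicate 2, while HBZ and ALAS2 244205_at have their highest values there.

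Over all 21 member probe sets, none passed an adjusted p of 0.05 by limma in L/C, L3/C, L3/L or in the test of any difference among the 3 groups, and 0% of the 54613 probe sets did. At an unadjusted p under 0.05, 0 of 21 passed in L/C, where 2.42% of all probe sets did. In L3/C, 2 of 21 passed against 4.26% of all, namely HBB 217232_x_at, higher as were 2.22% of all, and CA1 205950_s_at, lower as were 2.04% of all, and the count was 0 without C replicate 3, L3 replicate 2 or L3 replicate 3. In L3/L, 5 of 21 passed, all higher in L3, against 5.40% of all in either direction and 2.96% in that direction. They were 2 alpha sets, 2 HBB sets and 1 gamma set, which can share signal, and the count in L3/L was 2 without L replicate 1 and 8 without L3 replicate 1. In the test among 3 groups 2 of 21 passed, against 3.67% of all. On the normalized values no member was without overlap in L/C or L3/C, where 2.10% and 2.21% of all probe sets were.

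The medians of the members followed the same order. Their median difference on the log2 scale stood at -0.16 for L/C with 6 of 21 higher, at 0.18 for L3/C with 15 higher and at 0.34 for L3/L with 15 higher, while the medians over all probe sets lay within 0.01 of 0. When each array was centred on its median instead, the median of all probe sets moved to -0.12 in L3/C and -0.13 in L3/L, and 11 and 12 members were higher, at medians of 0.04 and 0.23. Without L3 replicate 2, 9 of 21 members were higher in L3/C and 10 of 21 in L3/L, at medians of -0.05 and -0.03, so the shift toward higher values over the members was not seen without that array. Without L replicate 1, 13 of 21 were higher in L3/L at a median of 0.19, and without any other single array 14 to 16 were, at medians of 0.31 to 0.59. In L3/C, 12 were higher without L3 replicate 4, at a median of 0.20, 14 without C replicate 2 at 0.17, and 15 without any other array but L3 replicate 2, at medians of 0.12 to 0.51. The 3 _x_at sets of HBB stayed higher in L3/L without it, as did 4 of the 6 alpha sets. Of the variation over the 12 arrays, a median of 9.44% lay between the 3 groups for the members and 13.7% for all probe sets.

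**Figure D4:**
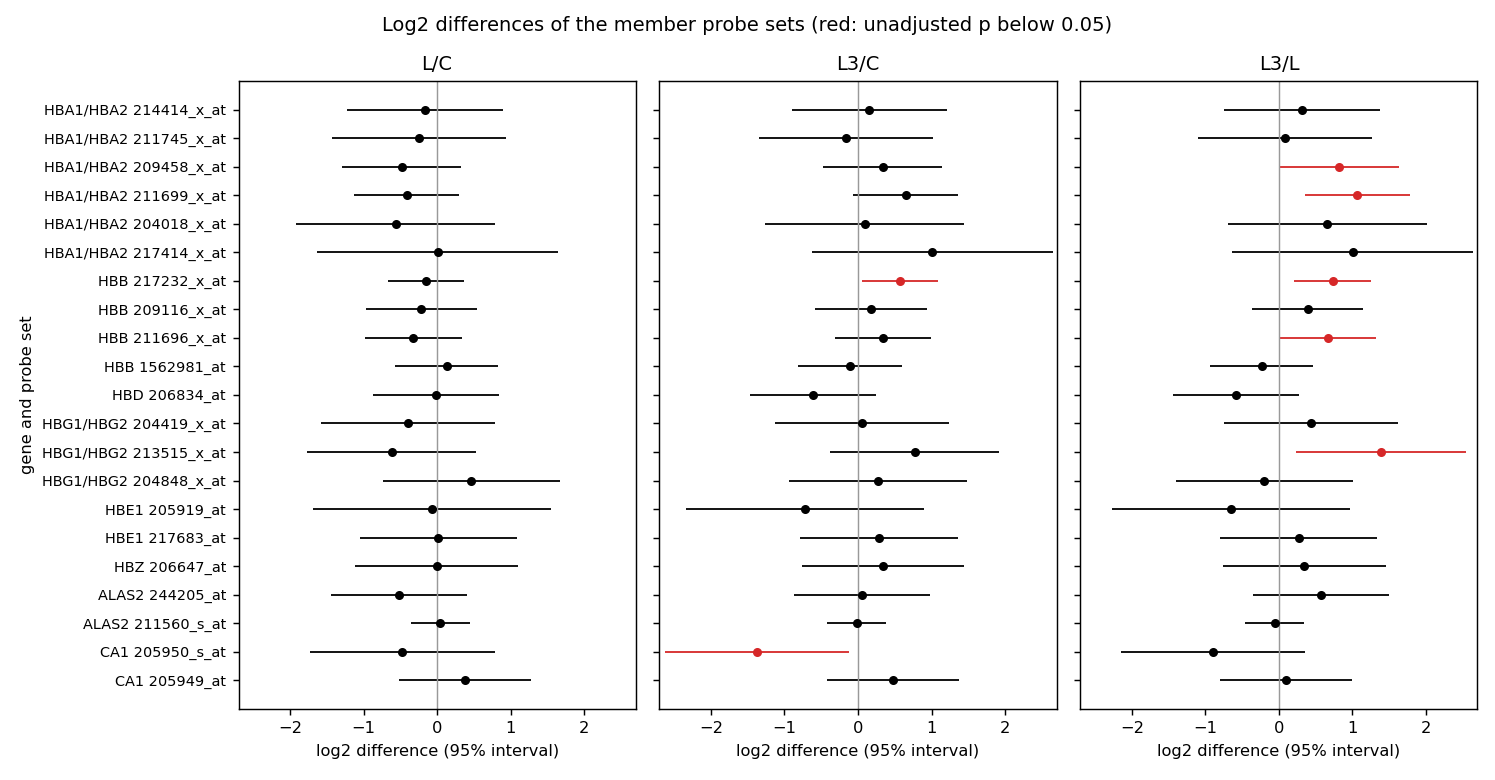
Log2 differences of the 21 member probe sets in L/C, L3/C and L3/L, with 95% intervals from limma. Red marks an unadjusted p under 0.05, which holds for 0, 2 and 5 sets. All intervals in L/C include 0, and the sets marked in L3/L lie above 0.

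The arrays differed in a shared way. L3 replicate 2 was the highest of the 12 in 9 of the 17 globin sets, and L3 replicate 4 in 3 more, whereas L3 replicate 2 was the highest in 12.2% of all probe sets and L3 replicate 4 in 3.33%. L replicate 1 was the lowest in 8 of 17, against 10.9% of all. The mean log2 value over the alpha sets was 10.7 in L3 replicate 2 and 10.3 in L3 replicate 4, and 7.92 in L replicate 1 and 8.23 in L3 replicate 1. L3 replicate 2 also had the highest mean log2 over 9 meningeal markers (10.5, against 8.61 to 10.1 in the other arrays). The same held for 18 leukocyte markers (7.58, against 6.87 to 7.47). It was not the highest over other red cell genes (8.12, against 8.31 in C replicate 3) or platelet genes (7.58, against 7.88 in L3 replicate 1). Nor was it over genes of endothelium and pericytes (8.11, against 8.36 in L replicate 2). The part of vessels, meninges or blood in its globin values was not tested.

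Probe sets for the same chain moved together over the arrays only in part. The brightest alpha and gamma sets had a Pearson's r of 0.85 (permutation p = 0.0003, adjusted 0.0038) and a Spearman's rho of 0.83 (permutation p = 0.0013, adjusted 0.0143) over the 12 arrays, of 11 relations computed. Without L replicate 1 and L3 replicate 2, r was 0.71, and after the group means were removed it was 0.85. It was 0.52 among the 6 arrays of weaker spike-in signal and 0.88 among the other 6. The brightest HBB set had r of 0.17 with alpha (permutation p = 0.592, adjusted 0.652, rho 0.13 with permutation p = 0.7), and without L3 replicate 2 and L3 replicate 3 it was -0.25. Among the 6 arrays of weaker spike-in signal that r was 0.91, and among the other 6 it was 0.55, with neither value tested. After the group means were removed over all 12 arrays, it was 0.08. With gamma, the HBB set had r of 0.21 (permutation p = 0.518, adjusted 0.652, rho 0.19 with permutation p = 0.556), -0.36 without the same 2 arrays, and 0.74 and 0.45 within these sets of 6 arrays. The other sets did not keep this contrast. Alpha 214414_x_at had r of 0.78 and 0.56 with the other _x_at HBB sets, and 0.51 and -0.23 with the other gamma sets. Over 18 pairs each, the median r of alpha was 0.52 with _x_at HBB sets (0.11 to 0.78) and 0.44 with gamma sets (-0.41 to 0.86). As a description, the 15 pairs of alpha sets had a median r of 0.73 and the 3 pairs of _x_at HBB sets 0.63. The 3 gamma pairs had a median r of -0.16, the ALAS2 pair an r of -0.53 and the CA1 pair an r of -0.26. These sets share arrays, and in part the transcripts they can match.

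**Figure D5:**
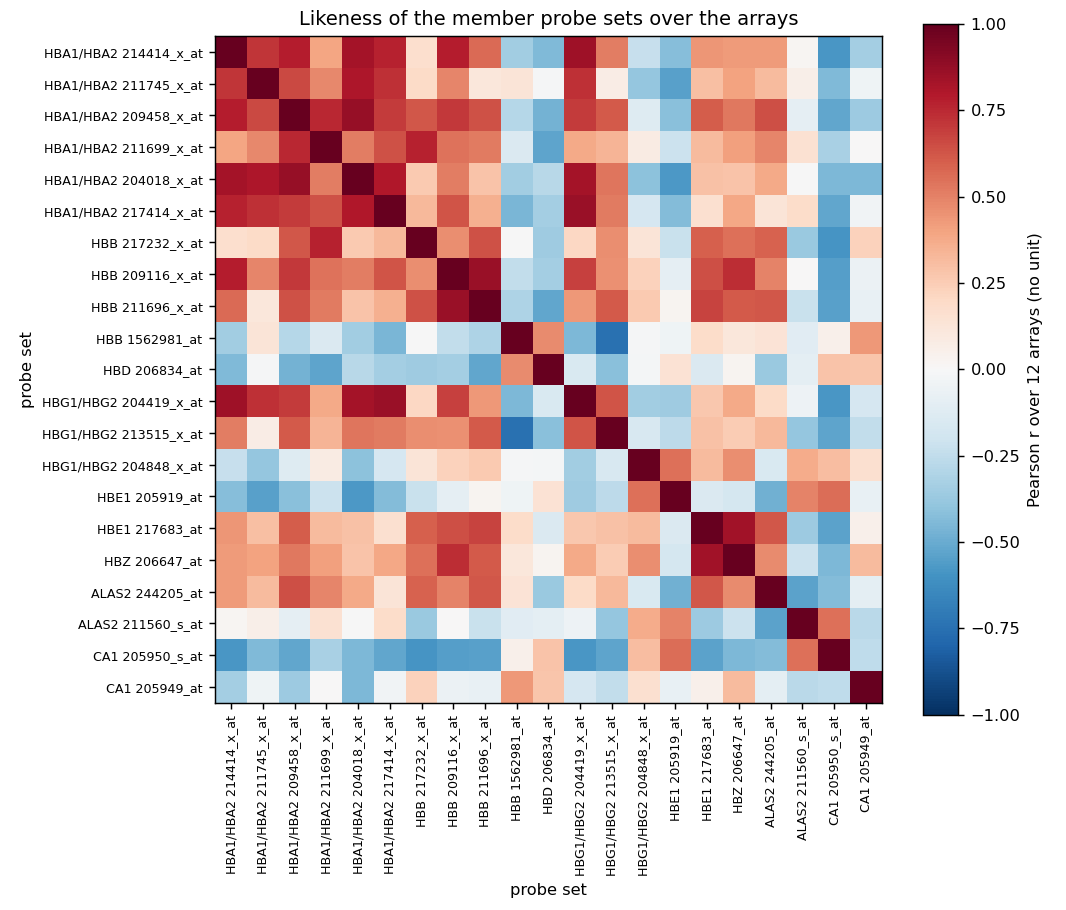
Pearson's r of each pair of member probe sets over the 12 arrays, in color from -1 (blue) to 1 (red), with no unit. The alpha sets and gamma 204419_x_at form a red block, while CA1 205950_s_at is blue against it and the ALAS2 and CA1 sets differ from their partners.

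The genes most like the brightest globin sets included none of the red cell genes listed further on. Members, and probe sets with no symbol or several symbols, were left out of this search. Over the 12 arrays the probe sets most correlated with HBB 217232_x_at were CFAP100-DT, GLI4, FBXL21P, HSPD1, LOC105377143, LINC01924, HNF4G, CA5B, ATP9A and PHF3, with r of 0.904 to 0.947. For HBG 204419_x_at they were ADGRF5, NTRK2, UACA, RPS9, RRP8, FOXN2, CLIP3, MIR7-3HG, YLPM1 and JUND, with r of 0.881 to 0.919. Of the HBB list, CFAP100-DT, GLI4, FBXL21P and HNF4G read at most 84.1 and CA5B at most 305.2, while HSPD1 read 1533 to 4271. Of the HBG list, MIR7-3HG and JUND read at most 218.3. Signals of up to 317.3 were seen for RPS4Y1 without its transcript. The values of r are the highest over the probe sets searched, taken over 12 arrays that differ in quality, and they are given as a description.

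Other red cell genes gave no call, and many had weak signals. Of 27 genes of the red cell membrane and erythroid maturation, 20 were measured, 13 of them with a median signal below 317.3, and 0 had an unadjusted p under 0.05 in any of the 3 comparisons. In L3/C 7 of 20 were higher, with a median log2 difference of -0.09. AHSP, the chaperone of free alpha chains, read 55.7 to 675.4 and had an L3/L difference of -0.95 (SE 0.51, limma p = 0.079, exact permutation p = 0.0571), opposite in sign to the alpha chains. HEMGN, a nuclear factor of erythroid precursors, had an L3/C difference of -0.99 (SE 0.50, limma p = 0.065, exact permutation p = 0.114), and KEL, a blood group membrane protein, one of 1.06 (SE 0.55, limma p = 0.0701, exact permutation p = 0.114). SLC4A1, the anion exchanger of the red cell membrane, had one of 0.60 (SE 0.59).

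The heme pathway and the regulators of globin genes gave as little. Of 7 measured enzymes of heme synthesis besides ALAS2, 0 passed an unadjusted p of 0.05 in any comparison, and UROS had the smallest p in L3/C (-0.67, SE 0.32, limma p = 0.0512, exact permutation p = 0.0857). Of 16 factors known for globin expression or the switch, 9 had a median signal below 317.3. Of the 16, 1 passed in L3/L, where 5.40% of all probe sets did, and 0 passed in L/C or L3/C. The factor that passed was KLF1, the erythroid activator of HBB, with an L3/L difference of 0.83 (SE 0.36, limma p = 0.0352, exact permutation p = 0.0286). Its median signal was 194.6. BCL11A, the repressor of gamma that is also expressed in cortical neurons, read 1437 to 8208 and had an L3/C difference of -0.15 (SE 0.39). GATA1, the principal erythroid factor, had an L/C difference of -1.23 (SE 0.58, limma p = 0.0512, exact permutation p = 0.0286), at a median signal of 114.

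Of 6 other globins, 0 passed in any comparison, and HBBP1, a beta-like pseudogene, had the smallest p in L3/C (1.30, SE 0.67, limma p = 0.0706, exact permutation p = 0.171). NGB, the globin of neurons, had an L3/C difference of -0.21 (SE 0.52) and CYGB, the globin of fibroblast-like cells, one of -0.24 (SE 0.42). Among 10 measured genes for free heme and hemoglobin, BLVRA, which reduces biliverdin, had an L3/C difference of 0.52 (SE 0.25, limma p = 0.0496, exact permutation p = 0.0857), and CD163, the macrophage receptor that takes up hemoglobin bound to haptoglobin, had an L3/L difference of -1.40 (SE 0.66, limma p = 0.0496, exact permutation p = 0.114). Among 13 other carbonic anhydrases, CA7 had an L3/C difference of 1.03 (SE 0.44, limma p = 0.0319, exact permutation p = 0.114) and CA2, also found in red cells, one of -0.89 (SE 0.56, limma p = 0.129, exact permutation p = 0.314). None of these passed after adjustment, and 4.26% of all probe sets passed an unadjusted p of 0.05 in L3/C and 5.40% in L3/L. Median signals below 317.3 were found for 4 of the 6 other globins and 4 of the 10 genes for free heme and hemoglobin. They were also found for 8 of the 13 carbonic anhydrases. NGB read 50.3 to 207.1 and CD163 read 11.9 to 279.7.

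Markers of blood and of other cells of the sample were compared in the same way. The share of all probe sets under an unadjusted p of 0.05 was 2.42% in L/C, 4.26% in L3/C and 5.40% in L3/L. Of 18 leukocyte genes 0 passed an unadjusted p of 0.05 in L3/C, with 11 higher and a median of 0.11. In L3/L, where 5 globin sets had passed, 10 of the 18 were higher at a median of 0.25, and 1 passed, FCN1 of monocytes (1.61, SE 0.65, limma p = 0.0246, exact permutation p = 0.143), with signals of 11.6 to 295.3. Of 8 platelet genes 0 passed in L3/C, with 5 higher and a median of 0.21, 0 passed in L3/L, with 4 higher and a median of 0.09, and ITGA2B, a platelet integrin, passed in L/C (-1.16, SE 0.52, limma p = 0.0401, exact permutation p = 0.143). Median signals below 317.3 were found for 14 of the 18 leukocyte and 6 of the 8 platelet genes. They were also found for 9 of the 16 genes of endothelium and pericytes and 4 of the 9 meningeal genes. In L3/L 0 of 16 genes of endothelium and pericytes passed, with 9 higher and a median of 0.06, and in L3/C 0 passed, with 9 higher and a median of 0.22. The 9 meningeal genes stood higher, 8 of 9 in L3/C at a median of 0.84 and 9 of 9 in L/C at a median of 0.44. In L3/L 7 of 9 were higher at a median of 0.24, and 0 passed. Of the 21 members, 6 were higher in L/C, at a median of -0.16. OGN, a small proteoglycan of connective tissue, had a difference of 1.57 in L3/C (SE 0.63, limma p = 0.0242, exact permutation p = 0.171). In L/C the difference of OGN was 1.41 (SE 0.63, limma p = 0.039, exact permutation p = 0.171). Its signals were 11.9 to 520.3, with a median of 205.4. DCN, another such proteoglycan, had a difference of 0.93 in L3/C (SE 0.41, limma p = 0.0363, exact permutation p = 0.114) and read 654.3 to 3747. The mean log2 of the meningeal list was 8.61 to 9.61 in C, 9.25 to 10.1 in L and 9.21 to 10.5 in L3, and its part in the globin values was not tested.

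Neural cell markers differed among the arrays as well. At an unadjusted p under 0.05, 2.42% of all probe sets passed in L/C, 4.26% in L3/C and 5.40% in L3/L. Of 12 neuronal genes 2 passed an unadjusted p of 0.05 in L3/C. They were MAP2, a dendritic microtubule protein (0.58, SE 0.18, limma p = 0.00526, exact permutation p = 0.0857), and GRIN1, an NMDA receptor subunit (-1.19, SE 0.51, limma p = 0.0318, exact permutation p = 0.2). In L3/L 2 passed too, MAP2 higher and ENO2, the neuronal enolase, lower (-0.58, SE 0.22, limma p = 0.0189, exact permutation p = 0.0571). Of 7 astrocyte genes 1 passed in L3/C, the water channel AQP4 (0.63, SE 0.26, limma p = 0.0272, exact permutation p = 0.0571). Of 6 oligodendrocyte genes 0 passed, with 0 higher in L3/C at a median of -0.24 and 1 higher in L3/L at a median of -0.26. Of 8 microglial genes, 7 were higher in L/C at a median of 0.31 and 2 in L3/L at a median of -0.45. For 3 of the 8 the median signal was below 317.3. C1QB, a complement chain, passed in L/C (2.00, SE 0.60, limma p = 0.00394, exact permutation p = 0.0286), with signals of 20.6 to 270.3, and AIF1 in L3/L (-1.41, SE 0.63, limma p = 0.039, exact permutation p = 0.0857). L3 replicate 2, the array with the most globin sets at their highest, had the lowest mean log2 over the neuronal list (11.7, against 12.0 to 12.4 in the other arrays) and over the oligodendrocyte list (9.52, against 9.61 to 10.5). None of these genes passed after adjustment, and the part of the makeup of the sample in the globin values was not tested.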

How the data were processed

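Total RNA of the precentral gyrus had been hybridized to human arrays, 1 per animal. The authors deposited a table of MAS5 signals computed in GCOS, which are intensities on a linear scale scaled to a common trimmed mean per array. The methods of the paper name RMA, whose values are on a log2 scale, so the test here does not start from the values used there. Groups, sex and age came from the sample records.

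After removal of 62 control probe sets, 16 was added to the signals of the other 54613, which were put on the log2 scale and brought to 1 distribution by quantile normalization. The means of C, L and L3 were fitted by limma (3.58.1, R 4.3.3) with a variance trend, leaving 9 residual degrees of freedom. Relations used 100000 permutations (Python 3.11.15, numpy 2.4.6). The fit was tested on simulated data.

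Member genes and gene lists were chosen with earlier results of these data known. Named were all member probe sets, up to 3 genes of smallest p per list, and the extremes of a list. Also named were the 10 probe sets most correlated with the brightest HBB and HBG sets, among non-members with 1 symbol. AHSP, SLC4A1, BCL11A, NGB, CYGB and CA2 were also named for their role, with values seen. Each listed gene was represented by its brightest probe set. Alternatives were other scalings and pseudocounts, a filter on dim sets, other variance models, covariates (sex, age, spike-ins, 3'/5' ratio), females only, a block on the replicate number, and the omission of each array in turn. Chosen after seeing the data were array weights and leaving out the 3 arrays of highest ACTB 3'/5' ratio, which were replicate 1 of C, L and L3. Sequences were not used here.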

Additional observations from a re-analysis of the deposited data

Results flagged for a closer look

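In 63 groups of 4 arrays (21 probe sets in 3 groups), 2 held an array far from the other 3 by Dixon's ratio of gap to range, that is, a ratio above the 95% critical value for 4 values, and chance gives about 1 in 20. ALAS2 244205_at read 205.7 in C replicate 2, against 97.8 to 129.9 in the other C arrays (ratio 0.902). HBD 206834_at read 327.1 in L3 replicate 3, against 141.2 to 176.4 in the other L3 arrays (ratio 0.836).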

How the results depend on the processing

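No member passed an adjusted p of 0.05 in limma under any alternative. At an unadjusted p under 0.05, the count in L3/C was 2 of 21. This count was 1 with no further normalization, median centring, ordinary t tests without limma's moderation of the variance, or a sex covariate. It fell to 0 with no variance trend, in females only and with an age or a spike-in covariate. It rose to 4 with the 3'/5' ratio as a covariate or without the 3 arrays in which that ratio was highest. In L3/L the count (5 of 21) was 3 with no further normalization, a pseudocount of 1, no variance trend, the ordinary t tests or only the 8 arrays compared. With median centring or an age covariate it was 1. In the test among the 3 groups (2 of 21) it was 1 with no further normalization, no variance trend or the spike-in covariate, 0 with median centring or the age covariate, and 5 with the 3'/5' ratio as a covariate or without those 3 arrays. When each array was left out in turn, the counts ran from 0 to 4 in L3/C, from 2 to 8 in L3/L and from 0 to 5 among the 3 groups, highest each time without L3 replicate 1. Without L3 replicate 2 they were 0, 3 and 0. L3/C was also 0 without C replicate 3 or L3 replicate 3 and 1 without C replicate 1 or C replicate 4, and L3/L was 2 without L replicate 1 and 3 without C replicate 4, L replicate 3, L replicate 4 or L3 replicate 3. Among the 3 groups it was 1 without L replicate 3 and 4 without L replicate 2. The share of all probe sets passing moved as well. It was 2.97% to 5.20% in L3/C, 3.93% to 7.69% in L3/L and 2.85% to 5.47% among the 3 groups over the alternatives that kept every probe set and had no replicate block, with 2.97% in L3/C in females only and 4.70% and 5.20% with the 3'/5' ratio as a covariate and without the 3 arrays. With an array left out it was 3.63% to 7.88%, 4.12% to 9.95% and 3.08% to 6.81%, highest each time without L3 replicate 4, where 2, 4 and 3 members passed.

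Signs of several small differences turned, and the cause was not tested. HBA1/HBA2 214414_x_at in L/C was 0.0096 with median centring, 0.026 with the sex covariate, 0.43 without the 3 arrays of highest 3'/5' ratio and 0.087 with array weights, and with median centring it was -0.094 in L3/C and -0.10 in L3/L. Without those 3 arrays, HBG1/HBG2 in L/C was 0.21 for 204419_x_at and 0.20 for 213515_x_at. HBG1/HBG2 204419_x_at in L3/C was -0.081 with median centring, -0.074 with the age covariate and -0.059 with array weights. In females only, L3/C was 0.075 for HBE1 205919_at and -0.068 for ALAS2 244205_at. HBZ in L3/L was -0.17 with the age covariate and -0.020 with the spike-in covariate. Leaving out 1 array gave a range of -0.40 to 0.30 in L/C, -0.29 to 0.52 in L3/C and -0.14 to 0.68 in L3/L for HBA1/HBA2 214414_x_at. It gave -0.31 to 0.57 in L3/C for HBG1/HBG2 204419_x_at, -0.053 to 0.52 in L3/C and -0.042 to 0.78 in L3/L for HBZ, and -0.16 to 0.19 in L3/C for ALAS2 244205_at, each lowest without L3 replicate 2. CA1 205950_s_at in L3/C was -1.82 to -0.61, and HBB 217232_x_at was 0.43 to 0.74 in L3/C and 0.58 to 0.89 in L3/L.

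Same-numbered arrays had correlations of -0.085 to 0.33 in their deviations from the group means. These were 0.136 to 0.185 for replicate 1 and 0.26 to 0.331 for replicate 4, but -0.0852 to 0.0625 for replicates 2 and 3. As not every correlation was over 0.1, the numbers were not taken as pairs, although some structure by number was present. Of the 12 arrays, 6 were closest to one of their own number. With the replicate block, 0 members passed an adjusted p of 0.05, and 0, 3, 5 and 3 passed unadjusted in L/C, L3/C, L3/L and among the 3 groups, where 3.11%, 5.19%, 7.01% and 4.94% of all probe sets did. With 4 arrays a group, no difference of any size among the members passed after adjustment, and sets at 10 to 20 signal units carry no usable difference.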
